A study of Homo sapiens with 24 samples.

Results

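Heat shock chaperone genes and their activator were followed by name in the transcriptome of diffuse midline glioma (DMG) cells treated with an inhibitor of the arginine methyltransferase PRMT5. They were the transcription factor HSF1 and 9 chaperone genes, namely HSPA1A, HSPA1B, HSPA8, HSPH1, DNAJB1, HSP90AA1, HSP90AB1, HSPD1 and HSPE1, and they made up 10 of the 58676 gene identifiers in the deposited table. They were named for what their proteins do, at a time when results of these data were already known. The cells were HSJD-DIPG-007, an established line from 1 tumour that carries H3F3A K27M, ACVR1 R206H and PIK3CA MIS, grown as spheroids. RNA came from 24 libraries, 12 of vehicle-treated cells and 12 of cells given LLY-283 at its GI40. Days 0 and 5 had 3 libraries per treatment group, day 7 had 2, and days 1, 2, 3 and 10 had 1. All groups shared the genotype, and medium with a second dose of LLY-283 or vehicle was given after 5 days. The study describes the libraries of a group as technical repeats, so the p-values below measure the spread between libraries.

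Heat shock proteins keep other proteins folded. HSP70 proteins bind unfolded stretches of a client together with an HSP40 partner, which starts the cycle, and an exchange factor, which ends it, and clients can then pass to HSP90. In mitochondria the HSP60 and HSP10 proteins form a closed chamber for folding. HSF1 is the main activator of many of these genes when proteins unfold, and tumour cells are known to hold many of them at high levels without heat.

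HSF1 acts through short repeated elements of GAA and its complement, and the promoters of 3 of the chaperone genes that hold such letters are shown for that reason. Of the 10 genes, 9 were matched to a RefSeq promoter on GRCh38.p14. Only 1 RefSeq start was used per gene, and other starts of the same gene were not searched. The window of DNAJB1 was chr19:14529222-14529521, inside a gene that spans 14514769 to 14560391. That of HSP90AA1 was chr14:102139700-102139999, just past the upstream end of a gene that spans 102080742 to 102139699. The letters GAANNTTC or TTCNNGAA, in which N is any base, were searched on both strands of the 250 bases before the start, and HSPA1A, HSPA1B and HSPA8 held at least 1 match while the other 6 matched genes held none in this window. Of 27305 promoters of that length, 11.7% held 1 or both of these motifs. The sequences are given in the direction of transcription, with the matched bases in capitals and the last base next to the start.
HSPA1A, chr6:31815293-31815542, plus strand: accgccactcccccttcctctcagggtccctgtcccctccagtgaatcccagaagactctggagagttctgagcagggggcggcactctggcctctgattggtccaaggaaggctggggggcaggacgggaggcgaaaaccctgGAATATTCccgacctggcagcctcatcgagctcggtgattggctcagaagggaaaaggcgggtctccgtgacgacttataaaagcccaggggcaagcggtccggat
HSPA1B, chr6:31827488-31827737, plus strand: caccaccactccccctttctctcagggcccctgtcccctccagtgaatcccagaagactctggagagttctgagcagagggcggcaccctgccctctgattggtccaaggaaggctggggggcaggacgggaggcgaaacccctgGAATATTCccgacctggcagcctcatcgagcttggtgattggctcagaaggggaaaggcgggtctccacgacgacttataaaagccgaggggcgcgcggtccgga
HSPA8, chr11:123062137-123062386, minus strand: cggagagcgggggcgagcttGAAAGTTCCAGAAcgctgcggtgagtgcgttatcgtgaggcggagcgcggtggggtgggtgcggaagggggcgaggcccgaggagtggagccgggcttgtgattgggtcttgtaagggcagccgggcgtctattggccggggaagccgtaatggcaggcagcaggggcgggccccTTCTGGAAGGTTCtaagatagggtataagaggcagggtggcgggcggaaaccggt
HSPA1A and HSPA1B held the same 8 letters at -106 and -105 from the start. HSPA8 held 4 overlapping matches, at -230, -225, -55 and -50, which join into 2 matches of a longer motif, GAANNTTC followed by NNGAA on either strand, which 0.439% of the 27305 promoters held. HSPA1A and HSPA1B each also held TATAAA, found in 11.1% of promoters, and 2 CCAAT letters, found in 33.0%, whereas HSPA8 held 2 CCAAT and no TATAAA. These matches describe letters and not sites in use.

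HSPD1 and HSPE1, which encode HSP60 and HSP10, lie head to head on chromosome 2, and the 104 bases between their RefSeq starts are shown because both genes are read outward from this stretch.
HSPD1 to HSPE1, chr2:197500275-197500378, plus strand: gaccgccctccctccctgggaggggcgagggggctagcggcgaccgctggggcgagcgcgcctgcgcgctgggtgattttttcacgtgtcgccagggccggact
None of the motifs searched was found in the 250 bases before either of these starts.

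The 10 genes together held between 0.843% and 1.17% of all counts in a library. Levels were compared between genes as CPM, counts scaled to the size of each library by the TMM method, per kilobase of the canonical transcript of GENCODE 44. HSPA8, the constitutive HSP70 of the cytosol, had the highest mean level over the 24 libraries at 1176 CPM per kb, followed by the cytosolic HSP90 genes HSP90AB1 at 1037 and HSP90AA1 at 883. HSPE1 at 502 CPM per kb and HSPD1 at 493 came next. HSPA1B, one of the 2 inducible HSP70 genes, had 59.2 CPM per kb, DNAJB1, an HSP40 partner of HSP70, had 56.4, and HSPH1, an HSP110 exchange factor, had 53.6. HSF1 had 20.2 CPM per kb and HSPA1A, the other inducible HSP70 gene, had 1.27. Some neighbours in this order were not separated by the spread between libraries. HSPE1 was above HSPD1 in 16 of 24 libraries, HSPA1B above DNAJB1 in 12, and DNAJB1 above HSPH1 in 16. HSP90AB1 was above HSP90AA1 in 23 of 24, and every other neighbour kept its order in all 24.

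**Figure D1:**
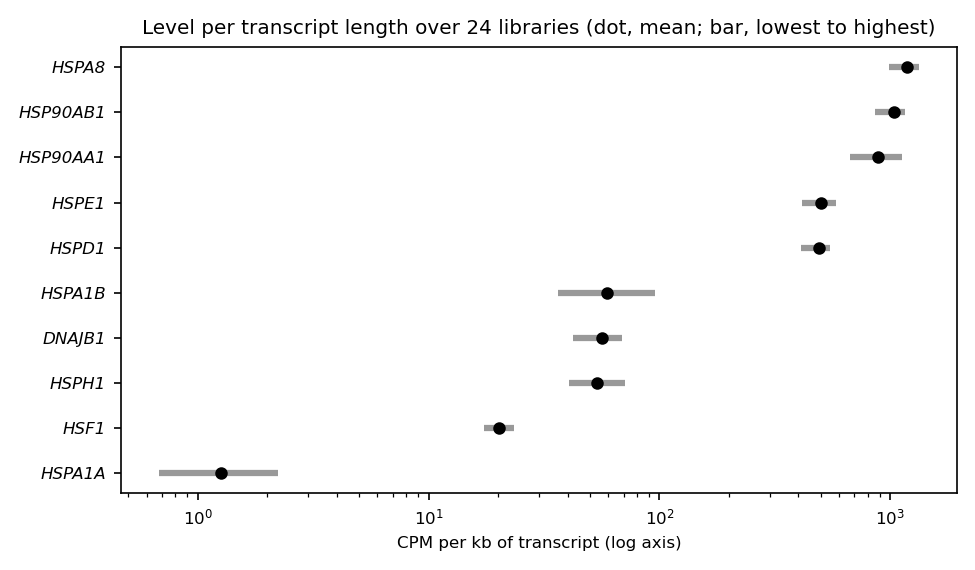
Level of HSF1 and the 9 chaperone genes, in CPM per kb of transcript on a log axis, as the mean (dot) and the lowest to highest value (bar) of 24 libraries. HSPA8 is at the top with a mean of 1176 and HSPA1A at the bottom with 1.27, and the bars of HSPA1B, DNAJB1 and HSPH1 overlap.

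How firmly a value can be read differs between the genes. HSPA1A had 32 to 122 counts per library, so counting error alone was 17.7% at its lowest count, whereas HSF1 had at least 605 counts and each of the other 8 genes at least 1674. HSPA1A and HSPA1B are near copies that encode the same HSP70 protein, and 76.9% of the 31-base words in the HSPA1A transcript also occur in HSPA1B. HSPA1A took between 1.19% and 3.04% of the sum of the pair, and the split between them depends on how the shared reads were assigned. The tests of HSPA1B below are therefore given for the sum of the pair as well. The sum does not take in ENSG00000285565, a gene that overlaps HSPA1B on the same strand and shares 35.8% of the HSPA1B words, which had 0 to 43 counts per library and was at 0 in 12 of 24. Words shared with other genes, most of them processed pseudogenes, made up 44.7% for HSPA8, 39.3% for HSP90AA1, 42.02% for HSP90AB1, 50.9% for HSPD1 and 55.0% for HSPE1. Of all HSPE1 words, 30.9% occur in HSPE1-MOB4, a read-through gene on the same strand. DNAJB1 shared 7.87%, HSPH1 0.460% and HSF1 none. Exons of HSF1, HSPA8, DNAJB1, HSP90AA1, HSPD1 and HSPE1 also overlap those of a gene on the other strand, and whether the counting used the strand of the directional libraries is not given in the sources used here.

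Library totals lay between 13835205 and 23190369 counts. The libraries of days 0 to 3 carry sample numbers 37 to 48 and those of days 5, 7 and 10 carry 1 to 12, so a comparison of day 5 with day 0 also crosses these sets, and day and set cannot be told apart. LLY-283 and vehicle were compared within a set on each day. The glioma and precursor markers OLIG2, SOX2, NES, PDGFRA and CSPG4 were present in the libraries, with a summed level of the 8 listed markers of 4192 to 4968 CPM, while SOX10 lay at 0 to 0.600 CPM. The 6 microglia and immune markers summed to at most 0.888 CPM, and TYROBP and C1QA were at 0 in all 24 libraries. At day 7 the repeats of a group stood apart from each other. Each repeat 2 was known from earlier results of these data to lie nearer the other group. The 5 neuron markers summed to 118.1 and 132.5 CPM in vehicle repeats 1 and 2, and to 147.4 and 102.8 CPM in LLY-283 repeats 1 and 2. Most of this sum came from SYT1 and GAD1, with medians over the 24 libraries of 59.2 and 63.9 CPM. For 20 HSF1 target genes outside the 10 genes the sums were 5396 and 5430 CPM with vehicle and 4601 and 5299 CPM with LLY-283. There only LLY-283 repeat 2 lay nearer the other group. The cause was not tested. Of the 10 genes, 10 were lower in LLY-283 than in vehicle between the libraries labelled repeat 1, and 8 were higher between those labelled repeat 2. The shares of all genes that were lower or higher in the same pairs were not counted. Day 7 is therefore given by label. Values without the 2 libraries labelled repeat 2 are given as a description only, because that choice followed the values of these same genes.

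The comparison at day 5 asked how the transcriptome of cells under LLY-283 differs from that of vehicle-treated cells. At day 5, 8 of the 10 genes were lower with LLY-283, none was higher, and HSF1 and HSPA1A did not pass the test. Over all 16491 genes tested, 14.1% were called lower and 26.1% were called in either direction, at a Benjamini-Hochberg adjusted p under 0.01 in the quasi-likelihood test of edgeR. The called genes were lower with LLY-283 than with vehicle by between 12.1% (DNAJB1) and 30.8% (HSPA1B). This is a difference between groups on the same day, and both of these genes rose from day 0 to day 5 in each group. The median log2 fold change of the 10 genes was -0.27, beside 0.02 for all genes tested. For 9 of the 10 genes, all but HSF1, each LLY-283 library lay below each vehicle library, which held for 21.1% of all genes tested. For HSPA1A the nearest libraries had 2.88 CPM with LLY-283 and 2.91 CPM with vehicle. That gap is within its counting error, which was 9.05% even at its highest count.

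HSF1 had 46.7, 46.5 and 44.5 CPM in the 3 vehicle libraries of day 5 and 48.6, 50.0 and 46.04 CPM in the 3 LLY-283 libraries. The groups overlapped, and the log2 fold change was 0.06 (SE 0.052, adjusted p = 0.4). A difference in the RNA of the factor itself was not detected with 3 libraries per group.

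Among the inducible genes, HSPA1B had 179, 190 and 185 CPM with vehicle and 131, 129 and 126 CPM with LLY-283. Every treated library was below every vehicle library, and the log2 fold change was -0.53 (SE 0.037, adjusted p = 1.1e-11). The sum of HSPA1A and HSPA1B gave the same size, at -0.53 (SE 0.037, adjusted p = 9.6e-12). HSPA1A alone had 4.12, 2.91 and 2.94 CPM with vehicle and 2.37, 1.97 and 2.88 CPM with LLY-283, and the log2 fold change of -0.48 (SE 0.22) did not pass (adjusted p = 0.088). In bulk RNA such as this, fewer cells with high levels and less RNA per cell cannot be told apart.

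DNAJB1 had 150, 145 and 140 CPM with vehicle and 132, 130 and 123 CPM with LLY-283. The groups were separate but close, with a log2 fold change of -0.19 (SE 0.039, adjusted p = 0.00038), the smallest of the 8 differences. HSPA8 had 2778, 2635 and 2601 CPM with vehicle and 2418, 2243 and 2247 CPM with LLY-283. This HSP70 gene had a log2 fold change of -0.22 (SE 0.037, adjusted p = 2.2e-05). HSPH1 had 292, 285 and 301 CPM with vehicle and 258, 245 and 238 CPM with LLY-283. The exchange factor was lower by 0.25 on the log2 scale (SE 0.035, adjusted p = 2.1e-06).

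Both HSP90 genes were lower with LLY-283. HSP90AA1, which encodes the inducible alpha form, had 3153, 3008 and 3148 CPM with vehicle and 2475, 2206 and 2160 CPM with LLY-283. The alpha form had a log2 fold change of -0.45 (SE 0.040, adjusted p = 9.5e-10). HSP90AB1, which encodes the constitutive beta form, had 2810, 2747 and 2687 CPM with vehicle and 2428, 2276 and 2224 CPM with LLY-283, a log2 fold change of -0.26 (SE 0.036, adjusted p = 1.9e-06). The alpha to beta ratio of CPM was 1.12, 1.095 and 1.17 in the vehicle libraries and 1.02, 0.969 and 0.971 in the LLY-283 libraries, and these did not overlap. The ratio was not tested.

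Of the mitochondrial pair, HSPD1 had 1188, 1139 and 1149 CPM with vehicle and 1033, 939 and 919 CPM with LLY-283. The log2 fold change of this HSP60 gene was -0.28 (SE 0.037, adjusted p = 1.1e-06). HSPE1, the HSP10 gene that starts from the same stretch of chromosome 2, had 314, 298 and 310 CPM with vehicle and 244, 241 and 232 CPM with LLY-283. The HSP10 gene had a log2 fold change of -0.37 (SE 0.035, adjusted p = 2.1e-09). The ratio of HSPE1 to HSPD1 was 0.261 to 0.270 in the vehicle libraries and 0.236 to 0.257 in the LLY-283 libraries, ranges that lay apart, and it too was not tested.

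**Figure D2:**
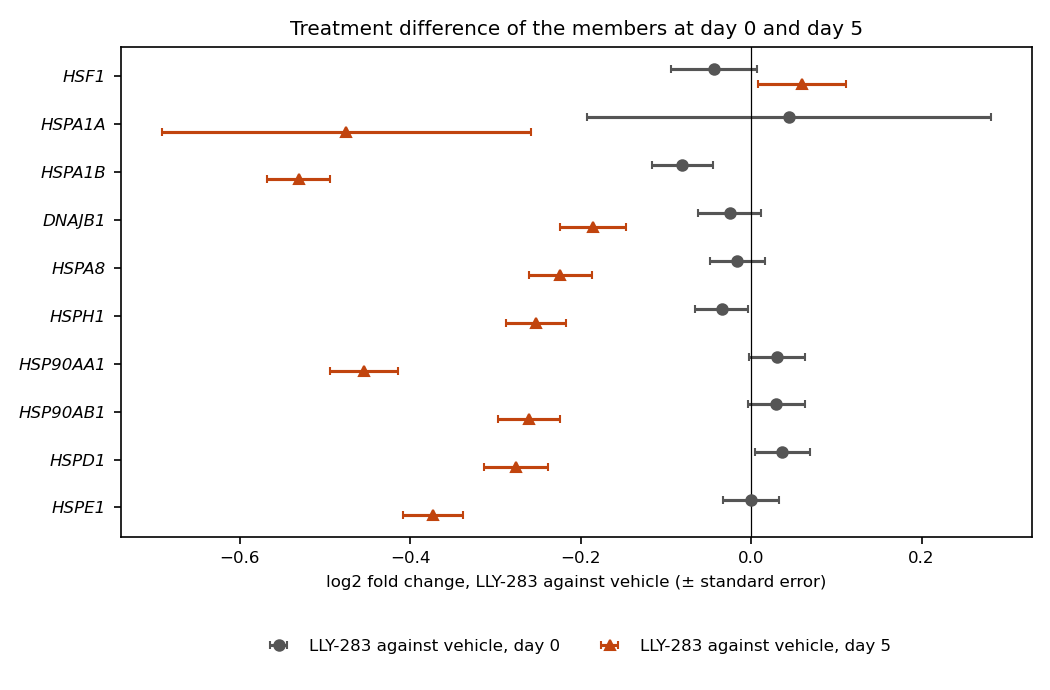
log2 fold change of LLY-283 against vehicle for each gene at day 0 (grey circles) and day 5 (red triangles), with bars of 1 standard error and 3 libraries per group and day. At day 5 the points of all genes but HSF1 lie left of 0, from -0.53 (HSPA1B) to -0.19 (DNAJB1), and at day 0 they lie between -0.08 and 0.04.

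At day 0 none of the 10 genes was called, and 0.0169% of the 17780 genes tested were. Beside that, 1012 of all genes had an unadjusted p under 0.05, and DESeq2 called 4 of all genes and none of the 10. The log2 fold changes of the 10 genes at day 0 lay between -0.08 (HSPA1B) and 0.04 (HSPA1A). HSPA1B and HSPH1 had each LLY-283 library below each vehicle library, a lower separation that 5.43% of all genes also showed. HSPA1B had 97.5, 96.1 and 101 CPM with vehicle and 91.8, 94.4 and 93.6 CPM with LLY-283, and its adjusted p was 0.86. The sum of the pair had -0.08 (adjusted p = 0.86).

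The treatment difference at day 5 was then tested against that at day 0, within 1 fit of both days. It was lower at day 5 for 7 of the 10 genes, beside 8.15% of the 18369 genes tested. The change in the treatment difference was -0.45 for HSPA1B (SE 0.052, adjusted p = 3.3e-07), -0.48 for HSP90AA1 (SE 0.056, adjusted p = 3.3e-07) and -0.37 for HSPE1 (SE 0.049, adjusted p = 2.2e-06), on the log2 scale. The sum of HSPA1A and HSPA1B also gave -0.45 (adjusted p = 2.1e-07). The change was smaller for HSPD1 (-0.31), HSP90AB1 (-0.29), HSPH1 (-0.21) and HSPA8 (-0.20), which also passed. DNAJB1 with -0.16 (adjusted p = 0.036), HSPA1A with -0.52 (adjusted p = 0.26) and HSF1 with 0.11 (adjusted p = 0.31) did not pass. In a fit of all 22 libraries of days 0 to 7, which takes in the wide spread of day 7, HSPE1 alone of the 10 genes passed. HSPA8 did not pass with a block for the repeat number (adjusted p = 0.01) or when LLY-283 repeat 1 of day 0, vehicle repeat 1 of day 5, or LLY-283 repeat 2 or 3 of day 5 was left out, with adjusted p between 0.011 and 0.017.

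Day 5 was compared with day 0 within vehicle, without the inhibitor. In vehicle, 6 of the 10 genes rose and none fell, beside 22.2% called higher and 16.7% called lower of the 17106 genes tested. HSPA1B rose most, from a mean of 98.3 ± 2.68 CPM (SD, n = 3) at day 0 to 185 ± 5.58 CPM (SD, n = 3) at day 5, a log2 fold change of 0.92 (SE 0.039, adjusted p = 4e-17). The sum with HSPA1A gave 0.92 (SE 0.039, adjusted p = 3e-17). DNAJB1 rose from 99.1 ± 2.79 to 145 ± 5.04 CPM (SD, n = 3 each), a log2 fold change of 0.56 (SE 0.040, adjusted p = 2.3e-12). HSP90AA1 rose by 0.26, HSF1 by 0.23 and HSPE1 by 0.15 on the log2 scale. HSPA1A rose by 0.78 (SE 0.23, adjusted p = 0.0069), a call that 6 of 14 alternatives did not make, among them DESeq2 (adjusted p = 0.025) and leaving out vehicle repeat 1 of day 0 (0.028), repeat 3 of day 0 (0.035) or repeat 1 of day 5 (0.074). HSPE1 did not pass with library size alone (0.016) or in the fit of 22 libraries (0.021). HSPH1 with 0.11 (adjusted p = 0.01), HSPD1 with 0.06, HSP90AB1 with -0.01 and HSPA8 with -0.05 did not pass, although HSPH1 was called higher by DESeq2 (0.0072) and without vehicle repeat 1 of day 0 (0.0094), and HSPA8 lower with library size alone (-0.10, adjusted p = 0.0092).

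With LLY-283 the 10 genes parted. Day 5 against day 0 within LLY-283 gave 3 genes higher and 6 lower, beside 22.9% higher and 19.5% lower of the 17341 genes tested. HSPA1B rose by 0.47 (SE 0.035, adjusted p = 3.5e-11), from 93.3 ± 1.32 to 129 ± 2.43 CPM (SD, n = 3 each), a call not made in the fit of 22 libraries (0.45, adjusted p = 0.012). The sum of the pair gave 0.46 (adjusted p = 3.5e-11). DNAJB1 rose by 0.40 (SE 0.037, adjusted p = 1.7e-09) and HSF1 by 0.33 (SE 0.050, adjusted p = 4.8e-06). HSP90AB1 fell by 0.31 on the log2 scale, HSPD1 and HSPA8 by 0.26 each, and HSPE1 and HSP90AA1 by 0.23 each. HSPH1 fell by 0.11 (adjusted p = 0.0054), a call lost without a filter on low counts, in the fit of 22 libraries, and in turn without LLY-283 repeat 1, 2 or 3 of day 0 or repeat 2 or 3 of day 5, with adjusted p between 0.013 and 0.043 in these. HSPA1A had 0.25 (adjusted p = 0.36). HSP90AA1 and HSPE1 thus rose in vehicle and fell with LLY-283, and for both the difference between the treatment effects of day 5 and day 0, which is the same contrast, passed as given above. These comparisons share libraries with those of treatment at day 5 and day 0.

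**Figure D3:**
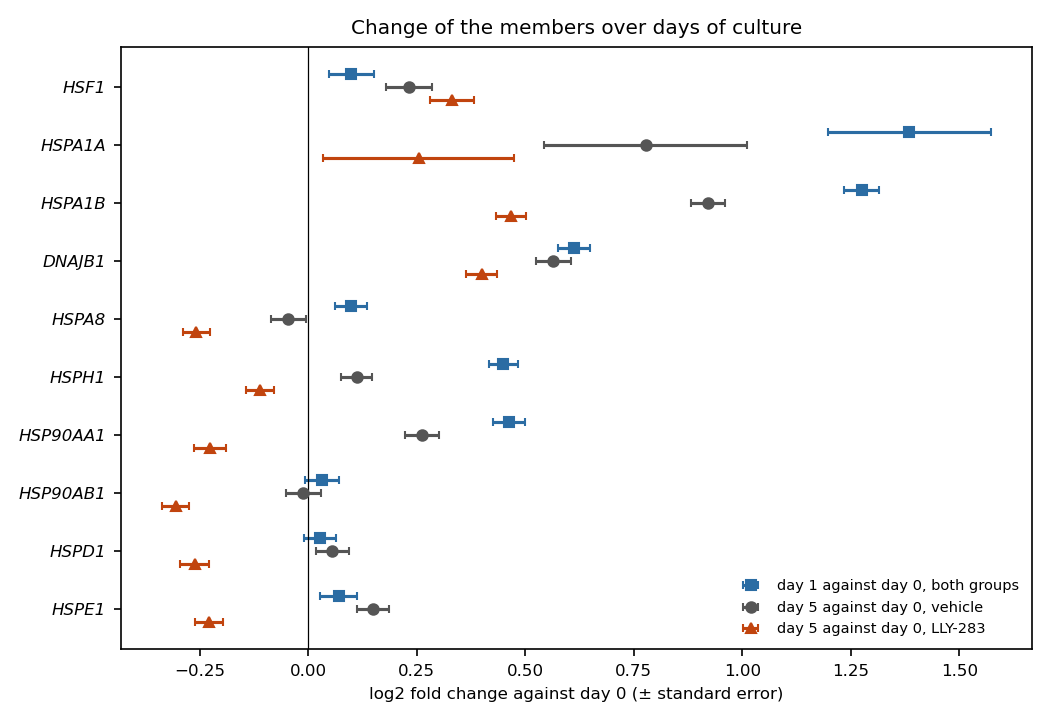
log2 fold change against day 0 for each gene, for day 1 with both treatment groups together (blue squares), day 5 with vehicle (grey circles) and day 5 with LLY-283 (red triangles), with bars of 1 standard error. HSPA1A and HSPA1B are farthest right at day 1 (1.38 and 1.27), and HSPA8, HSPH1, HSP90AA1, HSP90AB1, HSPD1 and HSPE1 lie left of 0 at day 5 with LLY-283, from -0.31 to -0.11.

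Day 1 was compared with day 0 over both treatment groups, 2 libraries against 6, with treatment as a term. Of the 10 genes 5 were higher and none lower, beside 14.1% called higher and 8.61% called lower of 18851 genes tested. At day 1 HSPA1B had 221 CPM with vehicle and 240 CPM with LLY-283, against 91.8 to 101 CPM in the 6 libraries of day 0. Its log2 fold change was 1.27 (SE 0.040, adjusted p = 5.6e-15), that of HSPA1A was 1.38 (SE 0.19, adjusted p = 7.7e-06) and that of their sum 1.28 (adjusted p = 3.1e-15). DNAJB1 rose by 0.61, HSP90AA1 by 0.46 and HSPH1 by 0.45 on the log2 scale. HSPH1 had its highest values of all libraries here, 359 and 374 CPM. HSPA8 (0.10), HSF1 (0.10), HSPE1 (0.07), HSP90AB1 (0.03) and HSPD1 (0.03) did not pass, except HSPA8 by DESeq2 and HSPE1 when the LLY-283 library of day 1 was left out.

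Between treatment groups, days 1 to 3 have 1 library each, and their treatment difference was tested with the 3 days as a block. None of the 10 genes was called, as 0% of 17240 genes were, although 2879 of all genes had an unadjusted p under 0.05 and DESeq2 called 12 of all genes and none of the 10. The sum of HSPA1A and HSPA1B had -0.13 (adjusted p = 0.47). HSPE1 had the smallest p of the 10 genes, with a log2 fold change of -0.24 (SE 0.054, adjusted p = 0.13). Without a filter on low counts HSPE1 and HSP90AA1 were called, and without day 3 HSPE1 was called (adjusted p = 0.0016).

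The single days are given as values, with no replicate check. At day 1, 6 of the 10 genes were lower with LLY-283, with a median log2 difference of -0.05. At day 2 all 10 were lower, with a median of -0.10, and HSPA1B had 158 CPM with LLY-283 beside 196 CPM with vehicle. The differences of day 2 ran from -0.31 to -0.0038, the last that of HSF1. At day 3, 9 were lower, with a median of -0.29, and HSP90AA1 had 3369 CPM with vehicle and 2554 CPM with LLY-283. HSPE1 at day 3 had 299 CPM with vehicle and 230 CPM with LLY-283, its lowest value in any library. The 12 fibroblast markers summed at day 2 to 325 CPM with LLY-283 beside 238 CPM with vehicle, and at day 3 to 315 beside 228 CPM, and their part in these values was not tested. The median over all genes lay between -0.01 and 0 on each of these days, and the share of all genes that were lower was not counted. At day 10, 6 of the 10 were lower, with a median of -0.03. HSPA1B then had 216 CPM with vehicle and 148 CPM with LLY-283, whereas HSPA8 had 2406 and 2512 CPM.

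**Figure D4:**
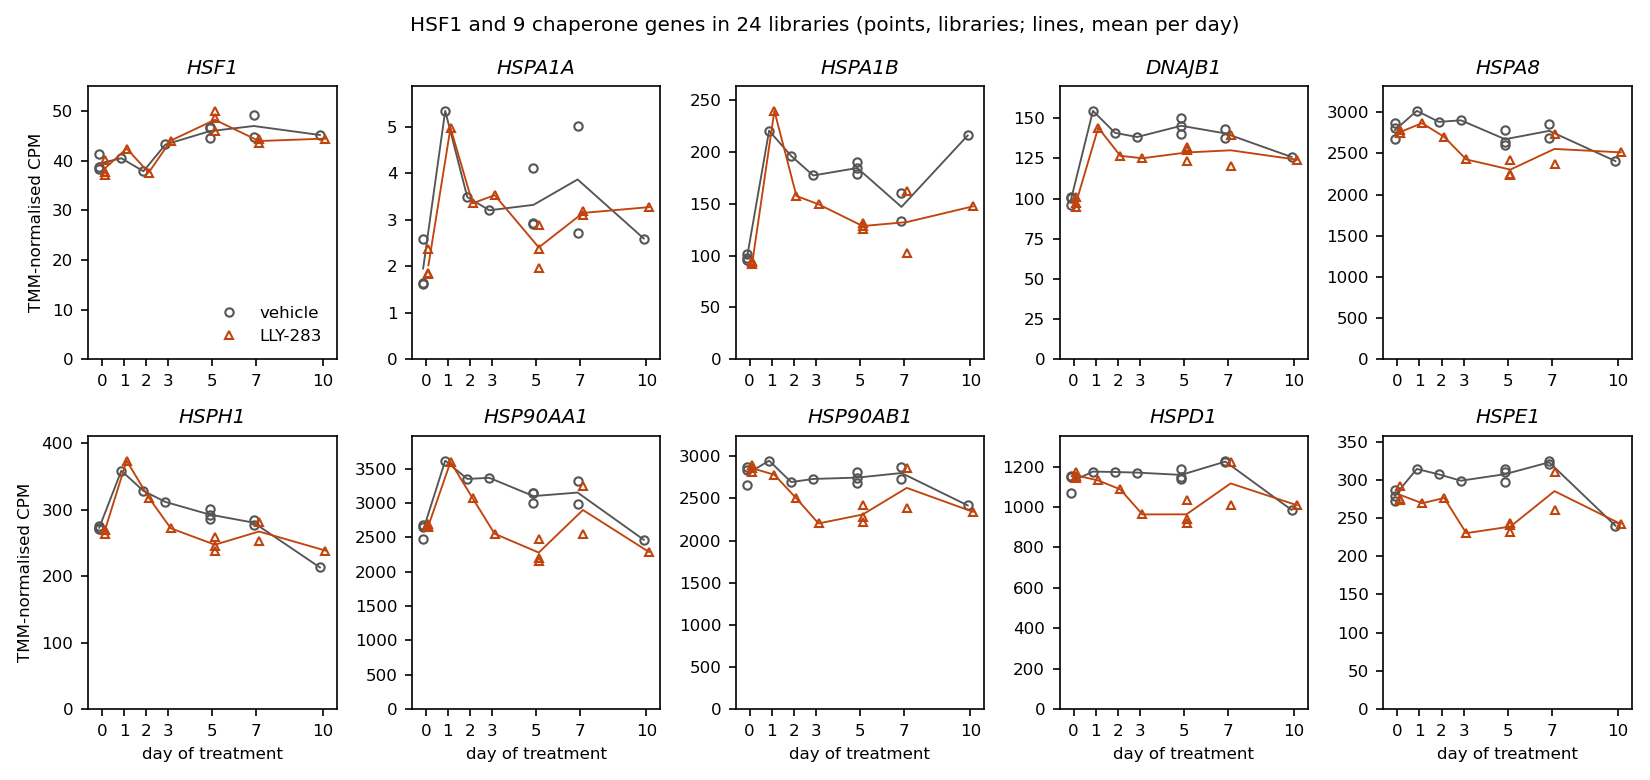
TMM-normalised CPM of each gene against day of treatment, with each vehicle library as a grey circle, each LLY-283 library as a red triangle, and lines through the mean of each day. HSPA1B rises from under 102 CPM at day 0 to 221 and 240 CPM at day 1, and from day 2 to day 5 its LLY-283 libraries lie below its vehicle libraries.

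At day 7, by label, none of the 10 genes was called, as 0% of the 16826 genes tested were, with 236 of all genes at an unadjusted p under 0.05 and 3 of all genes called by DESeq2. HSF1 and HSPE1 had both LLY-283 libraries below both vehicle libraries, which 18.5% of all genes showed. HSPA1B had 160 and 134 CPM with vehicle and 103 and 162 CPM with LLY-283, so the groups overlapped, and the sum of the pair had -0.12 (adjusted p = 1). With simulated counts for 16826 genes, this test found 13% of log2 changes of 0.5 and 53% of log2 changes of 1. These changes were given to 100 genes of each size, drawn at any level of counts, so the rates are not those of the 10 genes. In the LLY-283 library labelled repeat 1 the difference from the vehicle library of the same number was -0.62 for HSPA1B, -0.35 for HSP90AA1 and -0.28 for HSPE1 on the log2 CPM scale. In the libraries labelled repeat 2 it was 0.31, 0.15 and -0.04. In a fit of 20 libraries without the repeats 2 of day 7, which was added after the values were seen and takes the spread from the other days, 3 of the 10 genes were lower, beside 4.44% of all genes called in either direction. These were HSPA1B (-0.61), HSP90AA1 (-0.35) and HSPE1 (-0.28), on the log2 scale. That fit has 1 library per treatment group at day 7, each assumed to vary like the other groups. The libraries left out were chosen from the values of these same genes, so the fit cannot test them. The 3 genes were counted in 1 direction and the 4.44% in both, so these 2 figures are not a like comparison. No conclusion on day 7 is drawn from them.

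The genes that work with these chaperones were counted at day 5 in lists written from general knowledge, and the same 14.1% of all genes called lower applies. Of 16 HSP90 cochaperone genes 12 were lower and none higher, with a median log2 fold change of -0.19. FKBP4, which encodes a peptidyl-prolyl isomerase that binds HSP90, went from 499 ± 12.5 CPM (SD, n = 3) with vehicle to 373 ± 13.4 CPM with LLY-283, a log2 fold change of -0.43 (SE 0.035, adjusted p = 1.8e-10). CACYBP was lower by 0.39 and FKBP5, another isomerase, by 0.36 on the log2 scale. CHORDC1, a further HSP90 partner, was lower by 0.31 (adjusted p = 1e-06). It was also lower at day 0, by 0.15 without a call (adjusted p = 0.34). The difference between its treatment effects of day 5 and day 0 was -0.15 and did not pass (adjusted p = 0.054).

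Of 8 genes of TRiC, the cytosolic chaperonin that folds actin and tubulin, all 8 were lower, with a median of -0.24. CCT8 had the smallest p, with 569 ± 18.2 CPM in vehicle and 445 ± 24.9 CPM in LLY-283 (SD, n = 3 each). Its log2 fold change was -0.36 (SE 0.036, adjusted p = 8.2e-09). CCT5 was lower by 0.33 and CCT6A by 0.27. The log2 fold changes of the 8 genes ran from -0.36 (CCT8) to -0.18 (TCP1). Of 6 genes of prefoldin, which hands chains to TRiC, 2 were lower, PFDN2 by 0.29 and PFDN4 by 0.29, and none was higher.

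Among other HSP70 genes and exchange factors, 15 of 16 were tested, of which 5 were lower and none higher, with a median of -0.13. BAG2 was lower by 0.34, HSPA4L by 0.28, HSPA4 by 0.23 and HSPBP1 by 0.16. HSPA6, an inducible HSP70 gene named here after its values were seen, went from 5.82 ± 0.963 CPM with vehicle to 3.93 ± 0.596 CPM (SD, n = 3 each) with LLY-283, a log2 fold change of -0.58 (SE 0.16, adjusted p = 0.0062). BAG3, an HSP70 exchange factor, had -0.18 (adjusted p = 0.015) and did not pass.

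Of 9 other HSP40 genes tested, of 10, DNAJA1 fell by 0.30 and DNAJB6 by 0.22, and DNAJB2 rose by 0.47 (SE 0.052, adjusted p = 4.4e-08), from 37.9 ± 0.712 to 52.7 ± 1.25 CPM (SD, n = 3 each). Of 5 small heat shock protein genes tested, of 8, HSPB1 was lower by 0.40 (SE 0.036, adjusted p = 1.2e-09). It was at 300 ± 4.22 CPM with vehicle and 229 ± 12.6 CPM with LLY-283. CRYAB lay at 4.12 ± 0.164 and 5.86 ± 0.715 CPM and had 0.49 (adjusted p = 0.011). The HSF family list (HSF2, HSF4 and HSBP1 were tested, of 4) had no called gene, with log2 fold changes of 0.07, 0.43 and -0.08.

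Of 14 mitochondrial chaperones and proteases 6 were lower and 1 higher, with a median of -0.09. HSPA9, the mitochondrial HSP70, was lower by 0.26 (SE 0.037, adjusted p = 2.5e-06), CLPP, a matrix protease, by 0.26 and TRAP1, the mitochondrial HSP90, by 0.23. SPG7, a protease of the inner membrane, was higher by 0.25 (SE 0.051, adjusted p = 0.00092). Of 12 chaperones of the endoplasmic reticulum 6 were lower and none higher, with a median of -0.12. SDF2L1 was lower by 0.46, PDIA4 by 0.26 and HSPA5, the HSP70 of that compartment, by 0.25.

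**Figure D5:**
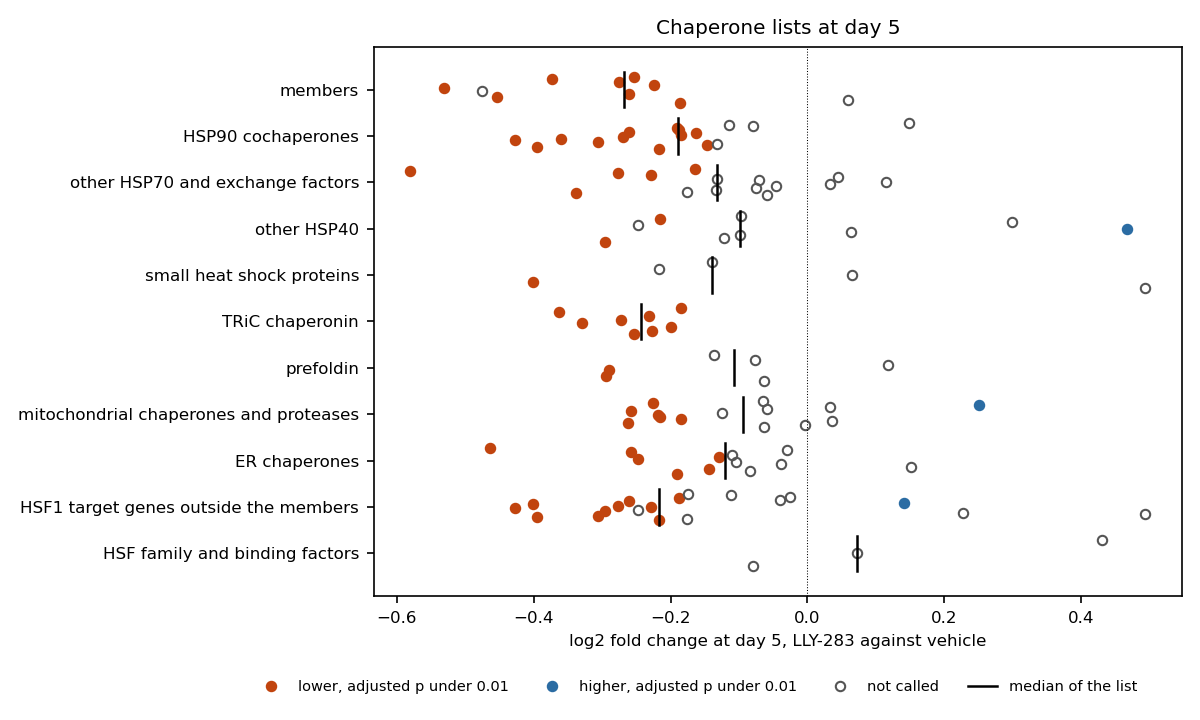
log2 fold change at day 5, LLY-283 against vehicle, of each tested gene in the chaperone lists, filled where the adjusted p was under 0.01 (red lower, blue higher), with a line at the median of each list. The row named members holds HSF1 and the 9 chaperone genes, and its median of -0.27 is the lowest of the lists drawn, beside -0.24 for TRiC and -0.22 for HSF1 targets outside the 10 genes.

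In the list of 20 HSF1 target genes outside the 10 genes, which shares genes with the lists above, 19 were tested at day 5. Of these 10 were lower and 1, IER5, was higher, with a median of -0.22. Over time in vehicle 16 of the 19 rose and 1 fell, beside 22.2% and 16.7% of all genes, and from day 0 to day 1 16 rose and none fell, beside 14.1% and 8.61%. SERPINH1, the collagen chaperone, rose by 0.67 in vehicle (SE 0.036, adjusted p = 6.3e-15) and by 0.61 with LLY-283 (SE 0.031, adjusted p = 2.4e-14), and its treatment difference at day 5 was -0.04 (adjusted p = 0.38). HSPB1 rose by 0.50 in vehicle (SE 0.036, adjusted p = 4.5e-12) and had 0.03 with LLY-283 (adjusted p = 0.54).

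Other values moved with the treatment at day 5 beside the chaperone genes. The 5 neuron markers summed to 108 to 112 CPM in vehicle and 159 to 169 CPM in LLY-283, and 2 of the 4 tested were called higher. SYT1 and GAD1 made up most of this sum. RBFOX3, SLC17A7 and SNAP25 had medians of 1.42, 0.679 and 0.0839 CPM over the 24 libraries. The 10 immediate early genes summed to 639 to 660 CPM in vehicle and 616 to 635 CPM in LLY-283, with 3 called higher and 3 lower. The 12 fibroblast markers summed to 231.5, 237.6 and 398.9 CPM in vehicle repeats 1, 2 and 3, and to 322 to 324 CPM in LLY-283. Vehicle repeat 3 alone lay above LLY-283, and 3 of 11 tested were called higher. Of these 11, 5 had a positive and 6 a negative log2 fold change, with a median of -0.14. The glioma and precursor markers summed to 4726 to 4888 CPM in vehicle and 4597 to 4659 CPM in LLY-283, with 2 of 7 tested called higher and 2 lower. Their part in the results was not tested.

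HSPA1B had the widest range of log2 CPM over the 24 libraries, 1.40, among the 10 genes with a mean of at least 10 CPM. After each gene was centred on its own mean, HSPA1B was compared over 24 libraries with 10211 genes outside the 10. The 5 with the smallest root mean square difference from it were TOP2A (0.18 on the log2 scale), CHORDC1 (0.20), SDF2L1 (0.20), XBP1 (0.21) and CEP55 (0.22). The median over the genes compared was 0.44. Among the 10 genes, with HSPA1A left out for its low level, DNAJB1 was nearest at 0.26 and HSP90AB1 farthest at 0.45. TOP2A, a topoisomerase of dividing cells, went from 218 ± 6.57 CPM at day 0 to 415 ± 21.9 CPM at day 5 in vehicle, and to 294 ± 13.2 CPM at day 5 with LLY-283 (SD, n = 3 each). CHORDC1 was at 64.5 ± 0.785, 107 ± 4.49 and 87.1 ± 2.38 CPM in the same groups. XBP1, a transcription factor of the response to unfolded protein in the endoplasmic reticulum, was at 61.6 ± 3.20, 106 ± 1.56 and 96.3 ± 7.43 CPM. At day 0 with LLY-283, TOP2A was at 218 ± 3.27, CHORDC1 at 58.1 ± 1.13 and XBP1 at 63.4 ± 3.27 CPM. These genes were chosen for this likeness, which is a description over 24 libraries that share treatment and day.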

How the data were processed

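Poly(A) RNA of HSJD-DIPG-007 cells was sequenced from 24 directional libraries, 12 per treatment group. The authors assigned reads to human transcripts (hg38) with kallisto and deposited estimated counts per gene as whole numbers, not scaled for library size. The kallisto version and the annotation are not given in the sources used here. Symbols of GENCODE 44 were matched to 58207 of 58676 gene identifiers.

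All genes were tested together in edgeR 4.0.16 (R 4.3.3) with TMM scaling, removal of genes with low counts by group and robust quasi-likelihood tests. P-values were adjusted by the Benjamini-Hochberg method, and a gene was called where the adjusted p was under 0.01. Days 5, 0 and 7 each had a fit of their own. The day 7 libraries were kept as labelled. Log2 CPM used a prior count of 2. Genes named were the 10 genes themselves and, per list, the 3 of smallest p at day 5 and the 3 over time in vehicle, with BAG3, HSPB1, CRYAB, HSPA5 and HSPA9 always, and the 5 genes most like the member of widest range. The members and lists were chosen with earlier results of these data known. Promoter letters came from RefSeq (GRCh38.p14).

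The alternatives were DESeq2 1.42.0, its size factors, scaling by library size, no removal of low counts, a minimum of 10 counts in each library, a threshold of 0.05, a block for the repeat number, a shared fit of 22 libraries, the HSPA1 pair summed, and each library left out. Library totals had a median of 18688160.5, and totals bound counting error only. Each test was tested on simulated data, where the day 5 test, with 16491 genes, found 59% of log2 changes of 0.5 and 79% of log2 changes of 1. In these data 100 genes were changed at each size, drawn at any level of counts, whereas 26.1% of all genes were called in the real libraries of day 5. The rates are therefore not those of the 10 genes in the real data.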

Additional observations from a re-analysis of the deposited data

Results flagged for a closer look

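The treatment difference between LLY-283 and vehicle differed between day 5 and day 0, by edgeR's test of that difference, for 7 of the 10 genes, all lower, beside 8.15% of all genes called lower. In the fit of 22 libraries 1 of the 7, HSPE1, was called. On the log2 scale the change was -0.48 for HSP90AA1, -0.45 for HSPA1B, -0.37 for HSPE1, -0.31 for HSPD1, -0.29 for HSP90AB1, -0.21 for HSPH1 and -0.20 for HSPA8. No group held 4 or more libraries, so none was searched for a library far from the others.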

How the results depend on the processing

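The 8 genes lower at day 5 were called under all 15 alternatives, DESeq2 (3300 of all genes) and the replicate block included. The repeat numbers did not pair the libraries (correlations of same-numbered deviations from -0.068 to 0.07 at days 0 and 5, and -0.16 at day 7). With the replicate block the calls of the 10 genes at days 5, 0 and 7 and over time in each group were as without it. For the difference between day 5 and day 0, HSPA8 alone lost its call (adjusted p = 0.01). Without the block, 26.1%, 0.0169% and 0% of all genes were called in either direction at days 5, 0 and 7. The shares were 38.9% over time in vehicle, 42.4% over time with LLY-283 and 14.9% for the difference between day 5 and day 0. The shares of all genes with the block are not given here. A block with crossed numbers at day 7, added after the values were seen, called 0 of the 10 and 36 of all genes. The difference between day 5 and day 0 gave 1 gene (51 of all genes) in the fit of 22 libraries, instead of 7. The day 7 fit without the repeats 2 is given as values only. Days 1 to 3 gave 2 (517 of all genes) without a filter and between 0 and 1 (256 of all genes without day 3) when a day was left out.

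Signs turned where no call was made. At day 0 HSPE1 had -0.01 with library size alone, -0.0019 with at least 10 counts and -3e-04 with the replicate block, and leaving out 1 library gave HSPE1 -0.0282 to 0.0192, HSPA1A -0.0835 to 0.3009 and HSPA8 -0.0384 to 0.0022. HSP90AB1 over time in vehicle had 0.0032 in the fit of 22 libraries and -0.0411 to 0.0176 with 1 library left out. HSPA1A over days 1 to 3 had 0.0191 with library size alone, 9e-04 with at least 10 counts and -0.0651 to 0.0387 with 1 day left out, and HSPH1 had -0.1193 to 0.0242. At day 7, leaving out 1 library gave HSPA1A -0.6464 to 0.2613, HSPA1B -0.4769 to 0.1635, HSP90AA1 -0.2634 to 0.0649, HSP90AB1 -0.1922 to 0.0566, HSPH1 -0.1109 to 0.0315, HSPD1 -0.2346 to 0.0206, DNAJB1 -0.1835 to 0.0152 and HSPA8 -0.1825 to 0.0024. At day 1, with the vehicle or the LLY-283 library of that day left out, HSP90AB1 had -0.0207 and 0.0896, HSPD1 -0.0134 and 0.0747, and HSPE1 -0.0394 and 0.1803. These are log2 fold changes, and the cause of the shifts was not tested. HSPA1A is limited by its low counts, and days 1, 2, 3 and 10 by single libraries.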
